A study of Homo sapiens with 3 samples.

Results

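Epithelial cells are held together by adherens junctions and tight junctions, and polarity complexes set the border between their apical and basolateral membranes. Many of the genes for these structures are switched on together by epithelial transcription factors and repressed together by ZEB, Snail and Twist factors in epithelial-to-mesenchymal transition. Tubule cells of the kidney, from which clear cell renal carcinoma is thought to arise, are epithelial, and renal carcinoma lines retain this character to differing degrees.

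The set described here holds 10 of the 19974 protein-coding genes on chromosomes 1 to 22 and X. They are CDH1, EPCAM, OCLN, TJP1, LLGL2, CRB3, ESRP1, ESRP2, GRHL2 and OVOL1. Every peak of each deposited list that overlapped the RefSeq span of one of these genes on GRCh38, extended by 20 kb on each side, was taken as a member. This gave 46 of 62777 peaks in 786-O replicate 2, 44 of 60760 in Caki-1 replicate 1 and 57 of 67839 in Caki-1 replicate 2.

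Lactylation of lysine 12 of histone H4 (H4K12la) was profiled by CUT&Tag. In this assay a transposase, brought to the mark by an antibody, cuts and tags the DNA beside it. The cells were untreated 786-O and Caki-1, established human renal cancer lines, of which 786-O is known to lack functional VHL and Caki-1 to retain it. There was 1 library of 786-O and 2 of Caki-1, with no control library, treatment or expression measurement among the files used here. Whether separate cultures gave the replicates of Caki-1 is not stated, so their spread may be technical.

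Since 786-O replicate 1 was not analysed here, values of that line have no replicate error. The depth of the libraries is unknown, so a gene without a called peak was below the caller's threshold in that library and is not shown to lack the mark. In a bulk library the mark in fewer cells and less of it per cell cannot be told apart. Of 7 genes listed here as renal markers, 4, 3 and 4 had a peak at the start in 786-O and in Caki-1 replicates 1 and 2. CDH16 had one in each library, while LHX1 and CA9 had none. Of 3 leukocyte markers none had one, and of 3 endothelial markers CDH5 had one in Caki-1 replicate 1. Of 2 hepatocyte markers, APOA1 had one in each library. A start peak is not a measure of expression, and whether these cells express APOA1 was not measured here.

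A peak is described by its width and by column 6 of its list. That column was read as the signal at the summit in 786-O and Caki-1 replicate 1 and as a score in Caki-1 replicate 2, so it is the authors' value and is compared only within a list. Its percentile rank within the list, from 0 to 100, is called the rank here. A peak lay at the start of a gene when it came within 1 kb of an annotated transcription start. RefSeq promoters on GRCh38.p14 gave starts for 3 members, OCLN, TJP1 and CRB3, and for the other 7 either end of the gene model was used. From general knowledge rather than the table, transcription begins at the lower coordinate in CDH1, EPCAM, LLGL2, ESRP1, GRHL2 and OVOL1 and at the higher one in ESRP2.

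The promoters that follow are shown because they include both kinds of result, windows inside a peak and windows with none. Each runs from 250 bases before a start to 50 after it, and capitals mark CAGGTG or its reverse complement CACCTG, the E-box letters known to be bound by ZEB and Snail repressors.
OCLN, chr5:69492297-69492596, plus strand: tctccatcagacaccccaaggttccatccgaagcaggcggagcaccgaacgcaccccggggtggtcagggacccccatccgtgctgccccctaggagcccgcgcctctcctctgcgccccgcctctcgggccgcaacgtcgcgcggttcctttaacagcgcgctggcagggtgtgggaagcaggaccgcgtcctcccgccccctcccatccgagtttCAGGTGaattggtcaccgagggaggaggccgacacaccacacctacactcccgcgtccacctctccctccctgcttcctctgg
TJP1 outer start, chr15:29969000-29969299, minus strand: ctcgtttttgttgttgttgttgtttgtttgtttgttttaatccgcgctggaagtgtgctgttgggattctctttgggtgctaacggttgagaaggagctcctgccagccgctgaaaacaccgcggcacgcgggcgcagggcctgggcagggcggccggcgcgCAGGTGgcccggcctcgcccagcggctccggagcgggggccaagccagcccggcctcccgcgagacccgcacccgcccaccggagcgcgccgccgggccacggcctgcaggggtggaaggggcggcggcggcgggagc
TJP1 inner start, chr15:29822419-29822718, minus strand: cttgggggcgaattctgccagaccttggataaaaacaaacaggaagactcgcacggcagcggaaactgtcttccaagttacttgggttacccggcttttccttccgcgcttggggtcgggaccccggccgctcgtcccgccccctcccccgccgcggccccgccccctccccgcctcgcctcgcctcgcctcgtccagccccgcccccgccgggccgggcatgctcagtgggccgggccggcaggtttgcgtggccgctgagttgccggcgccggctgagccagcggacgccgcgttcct
CRB3, chr19:6464021-6464320, plus strand: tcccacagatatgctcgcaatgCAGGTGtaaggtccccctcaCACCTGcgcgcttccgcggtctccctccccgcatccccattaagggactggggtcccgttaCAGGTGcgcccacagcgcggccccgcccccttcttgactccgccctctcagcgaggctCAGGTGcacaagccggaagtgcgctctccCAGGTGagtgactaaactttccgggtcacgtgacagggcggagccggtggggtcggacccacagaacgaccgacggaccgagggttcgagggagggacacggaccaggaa

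Peaks of Caki-1 covered the OCLN window over 300 bases in replicate 1 and 186 in replicate 2, and the nearest 786-O peak lay 23967 bp away. OCLN has a second annotated start a little downstream, whose window lay wholly inside both Caki-1 peaks. The inner TJP1 window was covered over all 300 bases in each of the 3 libraries. The outer TJP1 window had no peak nearer than 42887 bp in any library, and the CRB3 window none nearer than 3269 bp. All 4 windows are rich in G and C, with shares of 68%, 70%, 71.3% and 65.7% in the order printed, against a median of 58.7% over the 35116 promoters of the table. The E-box letters occurred at 1 place in the OCLN and in the outer TJP1 window, at 5 in CRB3 and at none in the inner TJP1 window, with both strands searched. The second OCLN window, inside both Caki-1 peaks, held them at 2 places. The TJP1 windows not printed held none and had no peak over them in any library. Of all promoters 20.6% held the letters at least at 1 place, and 33 of these promoters, or 0.094%, at 5 or more. The letters AACCGGTT, a motif of grainyhead factors that is its own reverse complement, were in none of these windows and in 0.134% of all promoters. These matches describe the letters in the windows and show no binding.

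**Figure D1:**
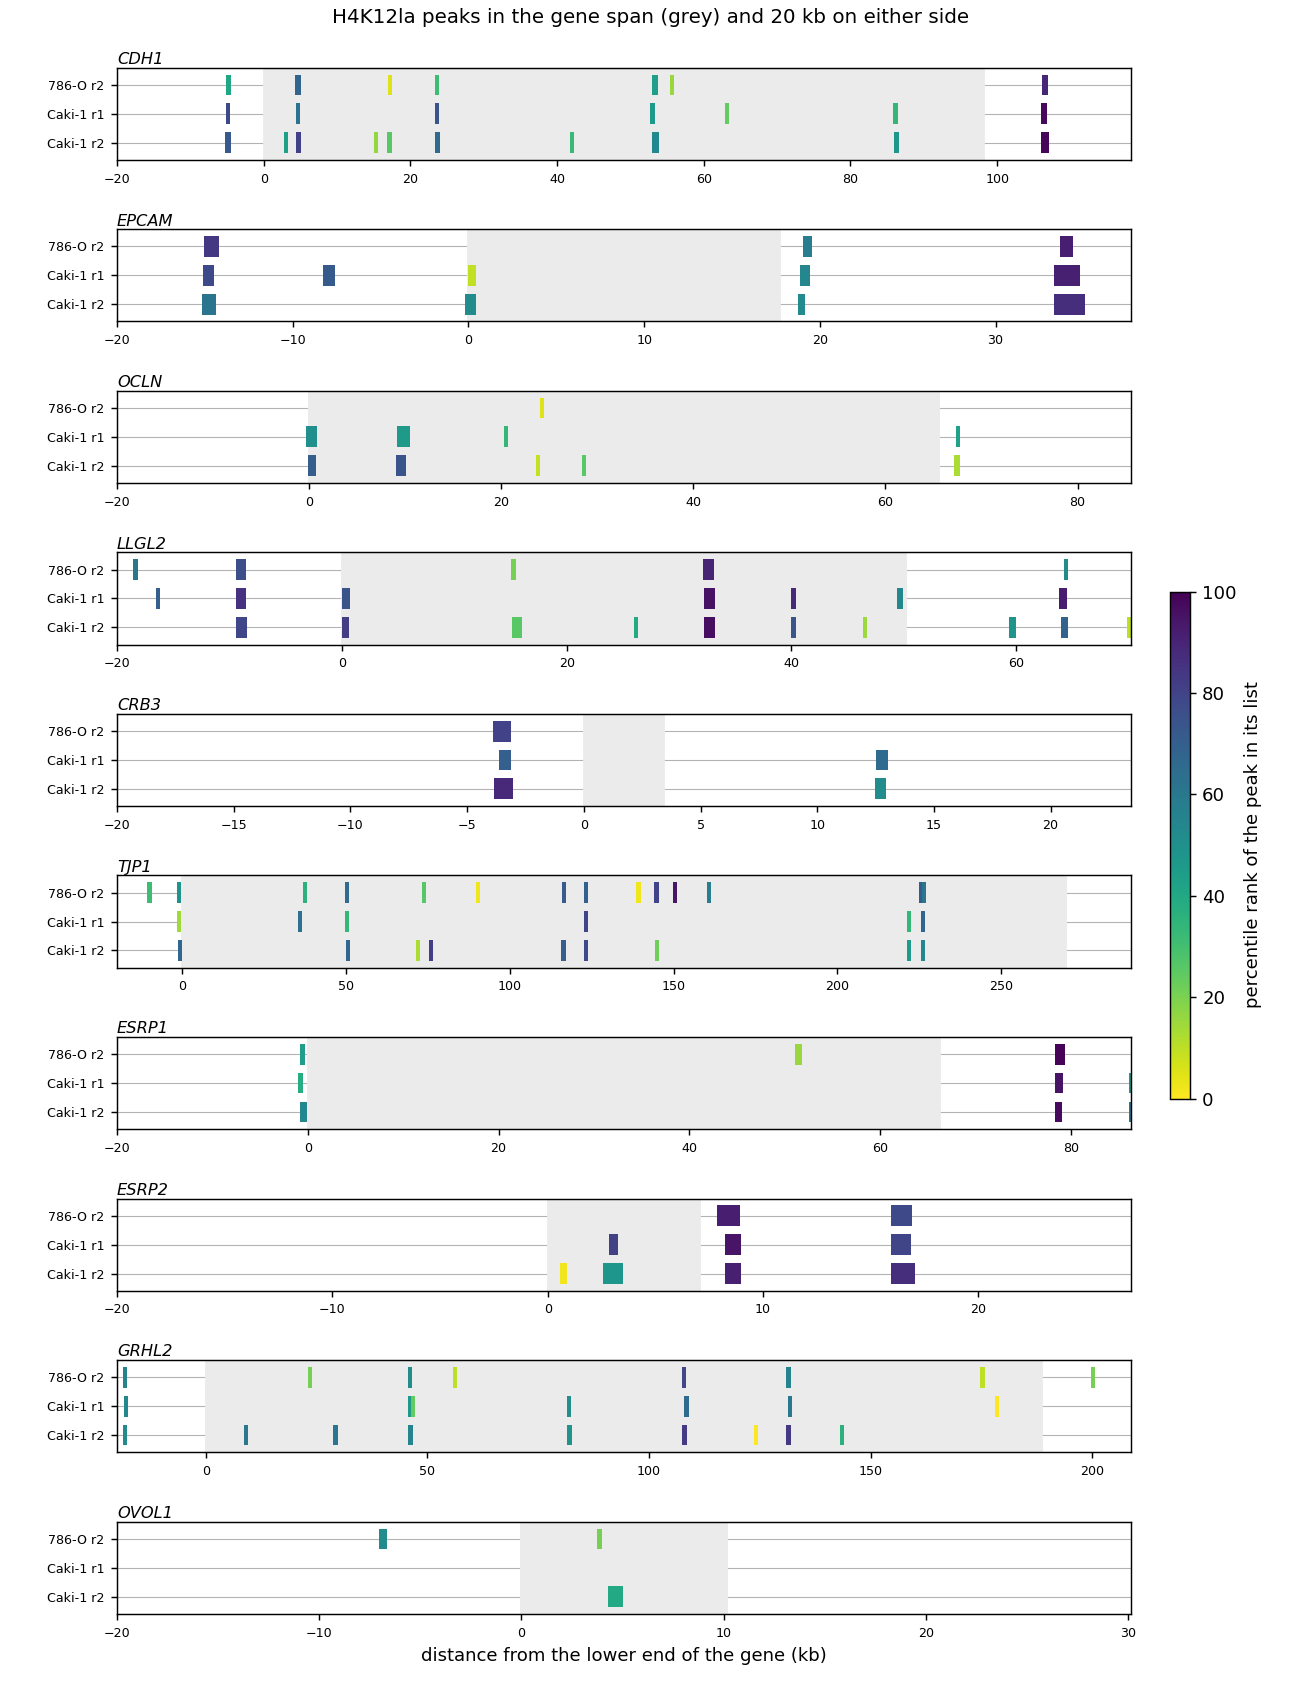
H4K12la peaks around each of the 10 genes, by library (rows), against distance in kb from the lower end of the gene. The grey field is the gene, each bar is a peak coloured by its percentile rank within its own list, and the narrowest peaks are drawn wider than scale so that they can be seen. The first OCLN peaks and the LLGL2 peak at 0 kb are in both Caki-1 rows and not in the 786-O row.

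CDH1 encodes E-cadherin, the homophilic adhesion molecule of adherens junctions. It spans 68737292 to 68835537 on chromosome 16 and had peaks inside the gene, but none within 1 kb of either end in any library. The nearest peak to its lower end lay 4259 bp away in 786-O, 4446 bp in Caki-1 replicate 1 and 2921 bp in replicate 2. Within 20 kb it had 7, 7 and 10 peaks in the same order, of which 5, 5 and 8 overlapped the gene.

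Of the 12 joined regions around CDH1, 5 were covered in all 3 libraries, and 3 of these lay inside the gene. The first of those 3, about 4 kb inside the lower end, measured 813 bp in 786-O (68741551 to 68742363), with a signal of 28. The signal in Caki-1 replicate 1 was 25, and replicate 2 scored 102. Its ranks were 67.7 for 786-O and 62.7 and 81.1 for Caki-1. The second, more than 23 kb inside, ranked 31.3 for 786-O against 74.3 and 65.8 for Caki-1, and the third, near 53 kb, ranked 44.4, 46.3 and 53.4. The second region was the one whose rank in 786-O lay farthest below both Caki-1 ranks.

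The strongest peak in the extended CDH1 span was not at CDH1. It lay at the lower end of the neighbouring gene TANGO6, with ranks of 89.3, 97.3 and 98.1. On the other side a region near the higher end of CDH3, the P-cadherin gene, ranked 40.3 for 786-O against 77.8 and 72.7 for Caki-1. A region near the far end of CDH1, from 68823139 to 68823900 and overlapping the pseudogene FTLP14, was found in Caki-1 alone, with a peak of each replicate. Its ranks were 33.7 and 47.7.

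EPCAM encodes an epithelial cell adhesion molecule of the lateral membrane and spans 47369311 to 47387020 on chromosome 2. A peak covered its lower end in both Caki-1 libraries, from 47369285 to 47369758 in replicate 1 and from 47369118 to 47369767 in replicate 2. The signal of 12 in replicate 1 ranked at 9.42, and the score of 49 in replicate 2 ranked at 51.8. In 786-O no peak overlapped the gene, and the nearest to the lower end was 14221 bp away. The same peak thus ranked near the floor of the replicate 1 list and in the middle of the replicate 2 list. These ranks rest on a signal in replicate 1 and on a score in replicate 2. Whether the gap comes from the replicates or from the unlike measures was not tested.

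Regions on both sides of EPCAM recurred in all 3 libraries. One about 14 kb below the gene ranked 83.6 for 786-O against 77.8 and 61.6 for Caki-1. Another, 1361, 1171 and 1022 bp beyond the higher end, ranked 58.1, 53.6 and 52.6.

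OCLN encodes occludin, a membrane protein of tight junctions, and spans 69492547 to 69558104 on chromosome 5. At its start both Caki-1 libraries had a peak and 786-O had none. The peak measured 1156 bp in replicate 1 (69492214 to 69493369), with a signal of 21, and 866 bp in replicate 2, with a score of 75. The ranks were 50.1 and 70.5. A further Caki-1 peak about 9 kb inside the gene measured 1359 and 1104 bp and ranked 46.3 and 74.3.

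In 786-O the whole extended span of OCLN held 1 peak, from 69516563 to 69516987, with a signal of 12 and a rank of 5.35. Caki-1 had 4 and 5 peaks there. No region around OCLN was covered in all 3 libraries. A pseudogene copy, OCLNP1, lies on the same chromosome from 71074203 to 71093070, and no source used here gives the treatment of reads that match both copies, so the values at OCLN are uncertain to that extent. The region beyond the higher end, at the start of GTF2H2C, also belongs to a duplicated family, and its ranks of 42.3 and 12.5 in Caki-1 are uncertain.

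TJP1 encodes ZO-1, a scaffold that ties tight junction proteins to actin, and spans 29699367 to 29969049 on chromosome 15. It has 4 annotated starts in the promoter table, and the peaks lay at the inner of those printed above and not at the outer. The inner start had a peak of 917 bp with a signal of 29 in 786-O, 1100 bp with a signal of 33 in Caki-1 replicate 1 and 1114 bp with a score of 92 in replicate 2. The ranks were 69.7, 79.4 and 77.9, and lay within 10 points of each other. From the start at the higher end of the gene the nearest peak was 42981, 42936 and 43034 bp away.

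TJP1 was the member with the most regions found in 786-O alone, 7 of 17. The 786-O list had 14 peaks in its extended span, against 6 and 9 in Caki-1. The highest-ranked of the 14, from 29849518 to 29850217, had a signal of 57 and a rank of 94.5 and overlapped no peak of either Caki-1 library. Another at 29843778 to 29844492 had a signal of 36 and a rank of 80.3 in 786-O, a score of 29 in Caki-1 replicate 2 and no counterpart in replicate 1. Replicate 2 had a peak of its own with a score of 104 and a rank of 81.6, from 29774955 to 29775520, which neither other library held. Besides the inner start, 3 regions were covered in all 3 libraries, about 50 kb inside the lower end, about 43 kb below the higher end, and 770, 822 and 686 bp below the gene.

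LLGL2 encodes a homologue of Drosophila lethal giant larvae, a determinant of the basolateral membrane domain, and spans 75525002 to 75575209 on chromosome 17. Both Caki-1 libraries had a peak that began 48 and 56 bp inside its lower end, and the nearest 786-O peak lay 8504 bp from it. It measured 637 bp with a signal of 30 in replicate 1 and 609 bp with a score of 106 in replicate 2, at ranks of 74.3 and 82.1. The peak also lay within 1 kb of the higher end of the neighbour TSEN54. Replicate 1 alone had a second peak at the higher end of LLGL2, at a rank of 53.6.

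The strongest LLGL2 peak was inside the gene and was shared by all 3 libraries. It covered 75557174 to 75558086 in 786-O and had a signal of 47 there, a signal of 55 in Caki-1 replicate 1 and a score of 235 in replicate 2. The ranks were 90.0, 95.5 and 96.8, so this region stood high in each list. A second region inside the gene, from 75564928 to 75565446, had ranks of 88.5 and 73.5 in Caki-1 and no peak in 786-O. A region in MYO15B, beyond the higher end, ranked 51.9 for 786-O against 92.4 and 69.0 for Caki-1.

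CRB3 encodes the Crumbs protein of most epithelia, a small apical membrane protein, and spans 6463777 to 6467221 on chromosome 19. No library had a peak in the gene or within 1 kb of its start. The nearest peak lay 3099, 3106 and 3025 bp below the lower end, at the higher end of SLC25A23. Its signals were 36 and 28 and its score 138, with ranks of 80.3, 70.1 and 88.6. A further region in DENND1C, 9057 and 9013 bp above the gene, was found in both Caki-1 libraries, with ranks of 65.3 and 51.8, and not in 786-O.

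ESRP1 and ESRP2 encode paired regulators of epithelial splicing, which keep epithelial exons in transcripts such as that of FGFR2. Both genes had a region next to one end in all 3 libraries. For ESRP1, which spans 94641174 to 94707466 on chromosome 8, it lay 271 bp below the lower end in 786-O, and 541 and 55 bp below it in Caki-1. The signals were 20 and 18 and the score 52, with ranks of 44.4, 38.1 and 54.2. Inside the gene the only peak was one of 786-O, at a rank of 15.4.

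The strongest peak near ESRP1 was at the lower end of DPY19L4, where the signals were 87 and 54 and the score 246. It ranked 99.0, 95.1 and 97.2, the highest 786-O rank around any of the 10 genes. A Caki-1 region 19890 and 19826 bp above ESRP1 was just inside the limit of 20 kb. Just outside that limit, the nearest peak of Caki-1 replicate 1 to OVOL1 lay 20666 bp from the gene.

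The corresponding region of ESRP2 was much higher in the lists. ESRP2 spans 68229033 to 68236127 on chromosome 16, and the region began 767 bp above its higher end in 786-O and 1139 and 1121 bp above it in Caki-1. Only the first of these distances is under the limit of 1 kb, so the count of starts takes in 786-O there and leaves out both Caki-1 libraries, although the 3 peaks overlap. The 786-O peak had a signal of 50, that of Caki-1 replicate 1 a signal of 53, and that of replicate 2 a score of 156. The ranks were 91.6, 94.8 and 91.2.

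ESRP2 entered the count for Caki-1 replicate 2 through another peak, near its lower end, with a score of 17 and a rank of 2.07. Inside ESRP2 both Caki-1 libraries had a peak, at ranks of 80.8 and 47.7, and 786-O had none. The next region up, at the lower end of PLA2G15, ranked 77.8, 79.4 and 86.8.

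GRHL2 encodes a grainyhead-like factor that activates CDH1 and other junction genes, and spans 101492439 to 101681200 on chromosome 8. It had no peak at either end in any library. The nearest peak to the lower end lay 18012 and 17903 bp away in 786-O and Caki-1 replicate 1, and 8849 bp away in replicate 2. Inside the gene there were 6, 6 and 8 peaks.

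3 regions inside GRHL2 were covered in all 3 libraries. The one that began 107422 bp inside the lower end in 786-O measured 957 bp there (101599861 to 101600817) and 1201 and 1202 bp in Caki-1. Its signals were 35 and 26 and its score 108, with ranks of 79.1, 65.3 and 82.7. The next, which began 130872 bp inside in 786-O, measured 1240, 650 and 1106 bp and ranked 55.1, 59.8 and 82.9. A region below the gene, in the divergent transcript GRHL2-DT, ranked between 52.6 and 55.1 in all 3 libraries.

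OVOL1 encodes a zinc finger factor that counters mesenchymal change, and spans 65787063 to 65797214 on chromosome 11. It had the fewest peaks of the set in Caki-1, with none in replicate 1 and 1 in replicate 2. The 786-O library had 2, of which 1 lay inside the gene, with a signal of 15 and a rank of 20.9, and the other at an end of AP5B1, with a rank of 51.9. The peak of replicate 2 was also inside the gene, with a score of 40 and a rank of 39.8, but it did not overlap that of 786-O. No 2 libraries shared a region around OVOL1.

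**Figure D2:**
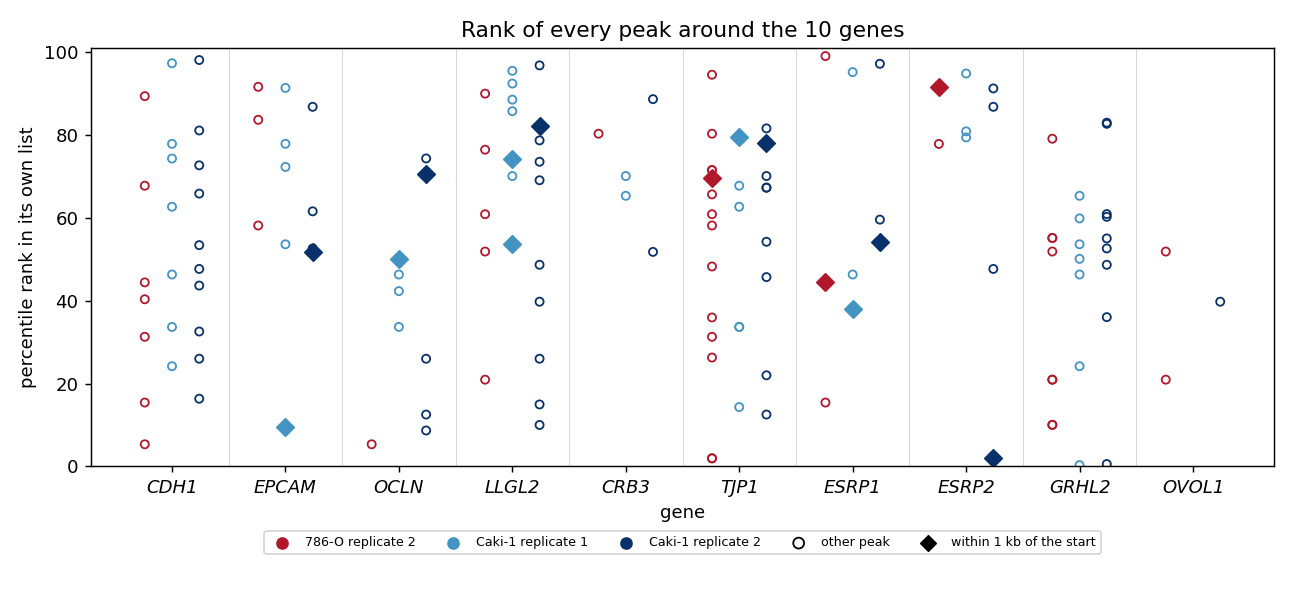
Percentile rank of every peak around each gene (y axis) within the list of its own library (colours). Filled diamonds are peaks within 1 kb of the start, or of either end of the gene where no start was given. ESRP1 and TJP1 have a diamond in each library, and CDH1, CRB3, GRHL2 and OVOL1 have none.

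A peak at the start, or at either end where no start was given, was found for 3 of the 10 genes in 786-O, 5 in Caki-1 replicate 1 and 6 in replicate 2. The 6 include ESRP2 through the peak near its lower end, which is not where its transcription begins. Over all protein-coding genes the shares were 52.8%, 55.6% and 57.8%, so the Caki-1 counts were near the background and that of 786-O was under it. With 10 genes, 1 gene moves the share by 10 points. TJP1 and ESRP1 had a start peak in all 3 libraries, against 45% of all genes, and CDH1, CRB3, GRHL2 and OVOL1 had none in any, against 35%.

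OCLN and LLGL2 had a start peak in both Caki-1 libraries and no 786-O peak within 5 kb of the start, which held for 5.3% of all genes. EPCAM was left out of this count by the 786-O peak beyond its higher end, although its lower end had a peak in Caki-1 alone. None of the 10 had the reverse pattern, a 786-O peak at the start with no Caki-1 peak inside 5 kb, against 2.53% of all genes. Both calls rest on a single 786-O library. The 3 possible labelings of the libraries allow no p below 0.333, so no test between the lines was made.

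Over the extended spans, 10, 9 and 10 of the genes had any peak, against 85.3%, 82.5% and 83.9% of all genes. OVOL1 in Caki-1 replicate 1 was the exception. No gene of the set had peaks in its extended span in Caki-1 alone or in 786-O alone, patterns that held for 3.47% and 4.61% of all genes. The median number of peaks per gene was 3 in 786-O and 4.5 in each Caki-1 library, against 3 over all genes in each library. Per 100 kb of extended span the medians were 4.12, 4.2 and 4.67, against 3.72, 3.54 and 4.03 over all genes.

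The strongest peak in the extended span lay at the start or an end of another protein-coding gene for 5 of the 10 genes in 786-O, for 4 of 9 with a peak in Caki-1 replicate 1 and for 4 of 10 in replicate 2. Over all genes with a peak the shares were 21.4%, 22.3% and 21.9%. CDH1, EPCAM, CRB3 and ESRP1 were counted in every library, and OVOL1 in 786-O alone. The median rank of the strongest peak was 89.6, 91.3 and 87.7, against 87.2, 84.6 and 87.5 over all genes with a peak. Without the peaks at other genes the medians for the set fell to 79.1, 77.8 and 77.7, over 9, 9 and 10 genes, and those for all genes to 83.6, 80.8 and 84.3.

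**Figure D3:**
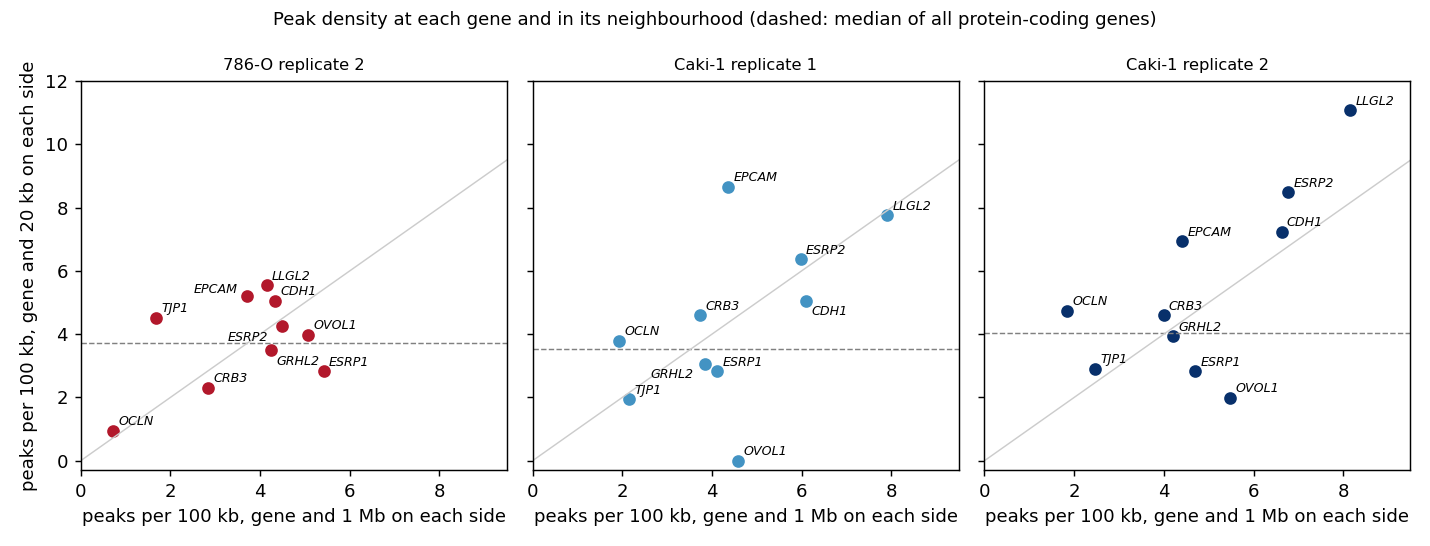
Peaks per 100 kb in the gene with 20 kb on each side (y axis) against peaks per 100 kb in the gene with 1 Mb on each side (x axis), for each library. The dashed line is the median of all protein-coding genes and the grey line marks equal densities. OCLN lies at 0.947 in 786-O and at 3.79 and 4.74 in Caki-1.

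Peak density around some members also differed between the libraries over a wider field. With 1 Mb on each side, OCLN had 0.726 peaks per 100 kb in 786-O, while Caki-1 had 1.94 and 1.84, and LLGL2 had 4.15 against 7.90 and 8.15. CDH1 had 4.34 against 6.10 and 6.62, and ESRP2 4.48 against 5.98 and 6.78. ESRP1 had the reverse order, with 5.42 against 4.11 and 4.69. TJP1 had 1.67 against 2.16 and 2.47, and its extended span went the other way, with 4.52 peaks per 100 kb in 786-O, while Caki-1 had 1.94 and 2.91. Chromosome 17, with LLGL2, took 3.49% of the 786-O list and 4.41% and 4.43% of the Caki-1 lists, and chromosome 5, with OCLN, 5.83% against 6.93% and 6.77%. The reverse held for chromosome 15, with TJP1, at 3.37% against 2.78% and 2.78%, for chromosome 11, with OVOL1, at 4.21% against 3.66% and 3.63%, and for chromosome 19, with CRB3, at 2.4% against 2.0% and 2.06%. The part of these wider differences, and of DNA copy number, in the peaks at OCLN and LLGL2 was not tested.

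Joined across libraries, the peaks formed 80 regions, of which 24 were covered in all 3 libraries. That is 30% (95% exact interval 20.3 to 41.3), against 20.5% of all 116359 regions. 786-O alone covered 16 (20%, 11.9 to 30.4, against 24.5%), and 12 were covered in each Caki-1 library but not in 786-O (15%, 8.0 to 24.7, against 13.8%). Each of the 3 intervals holds the share over all regions. They cover counting error only, and peaks of 1 gene are not independent. All regions include those outside the extended spans of genes, so the sets compared are unlike. Of the 786-O peaks, 44.5% of the whole list overlapped Caki-1 replicate 1, against 47.9% of those in extended spans of all genes. The 12 regions of Caki-1 were spread over 9 genes, with 3 at OCLN and 2 at LLGL2, and OVOL1 had none.

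**Figure D4:**
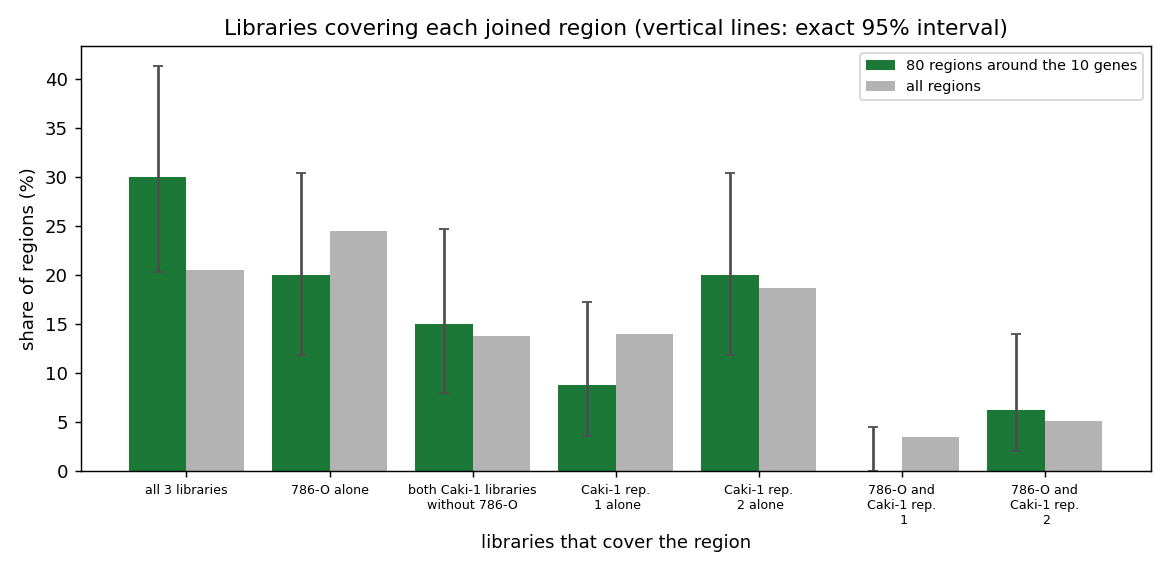
Share of joined regions (y axis, percent) by the libraries that cover them. Green bars are the 80 regions around the 10 genes, with exact 95% intervals. Grey bars are all regions, including those outside the extended spans of genes. Regions covered in all 3 libraries make up 30% of the green bars and 20.5% of the grey.

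Of the 786-O peaks around the 10 genes, 25 of 46 overlapped a peak of Caki-1 replicate 1, or 54.3% (95% exact interval 39.0 to 69.1), and 30 overlapped replicate 2, or 65.2% (49.8 to 78.6). Over the extended spans of all protein-coding genes the shares were 47.9% and 51.4%, inside both intervals. In the other direction 54.5% (38.8 to 69.6) of the replicate 1 peaks and 50.9% (37.3 to 64.4) of the replicate 2 peaks overlapped 786-O. Over all extended spans these shares were 48.9% and 46.6%. Between the replicates, 84.1% (69.9 to 93.4) of replicate 1 and 63.2% (49.3 to 75.6) of replicate 2 were shared, against 67.5% and 59.9% over all extended spans. The interval of the 84.1% lay above the 67.5% of all extended spans. The intervals cover counting error only, and peaks of 1 gene are not independent. Over all extended spans, too, each replicate shared more of its peaks with the other replicate than with 786-O. No test between the lines was made.

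Regions found in all 3 libraries ranked higher than those of a single library. Their median rank was 68.7 against 20.9 in 786-O, 72.2 against 53.6 in Caki-1 replicate 1 and 75.3 against 34.3 in replicate 2, with 24 shared regions and 16, 7 and 16 single ones. Over all regions the same medians were 73.3 against 31.3, 72.3 against 24.2 and 76.4 against 24.6. The exception among the single regions of 786-O was the TJP1 region with a rank of 94.5.

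70 further genes of junctions, polarity, epithelial regulation and repression were counted in the same way. A start peak was found for 36 of them in 786-O, or 51.4%, and for 41 and 46 in Caki-1, or 58.6% and 65.7%. For 27 it was present in every library, and 19 lacked it throughout. 10 genes, or 14.3%, had a start peak in each Caki-1 library while 786-O had no peak inside 5 kb, against the 5.3% of all genes. The reverse was found for 2, or 2.86%, against 2.53%. The lists were chosen with earlier results of these data known, so setting these shares beside those of all genes is not a test of the lists.

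Of 26 further junction genes, 5 had the Caki-1 pattern and none the reverse. MARVELD2, which encodes tricellulin, a tight junction protein of tricellular contacts, had a signal of 34 in Caki-1 replicate 1 and a score of 122 in replicate 2, at ranks of 80.8 and 85.8. JUP, which encodes plakoglobin, ranked 82.2 and 88.5, and PKP2, a desmosomal plakophilin, ranked 91.9 and 85.4. DSC2, a desmosomal cadherin, ranked 24.2 and 64.1, and 786-O had no peak within 20 kb of that gene.

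The 20 further polarity genes had start peaks in 11, 11 and 14 cases and 1 Caki-1 pattern, DLG3, a scaffold of the membrane-associated guanylate kinase family, at ranks of 70.1 and 88.9. The 3 genes of the further lists with the highest lowest rank over the libraries were in this list. LIN7C, a scaffold partner of the Crumbs complex, ranked 97.8, 97.7 and 98.3. PRKCI, the atypical protein kinase C of the PAR complex, ranked 98.6, 96.5 and 98.1, and MARK2, the PAR1 kinase of the basolateral side, ranked 98.1, 96.7 and 95.4.

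Among 12 further epithelial factors, the libraries had 5 start peaks apiece, of which only those of ELF3, KLF5 and RBM47 (3 genes) were present throughout. The relatives of GRHL2 had the Caki-1 pattern, GRHL1 at ranks of 67.7 and 69.0 and GRHL3 at 33.7 and 69.0, and 786-O had no peak in the extended span of GRHL3. OVOL2, the relative of OVOL1, and EHF, an ETS factor, had the reverse pattern, at 786-O ranks of 44.4 and 5.35. No start was given for OVOL2, nor for PKP2 and SNAI3 of the other lists, so either end was used. Their peaks need not lie where transcription begins. Of 12 repressors of epithelial genes, 6 had a start peak in 786-O, while Caki-1 had 8 and 9. SNAI3, a Snail family member, and KLF8 had the Caki-1 pattern, at ranks of 72.3 and 56.3, and of 56.8 and 86.0. The extended span of KLF8 had no 786-O peak, as with GRHL3 and DSC2. Peaks in the extended span in Caki-1 alone were found for 3.47% of all genes. Genes found at the start in Caki-1 and not in 786-O thus occurred both among junction genes and among their repressors.

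**Figure D5:**
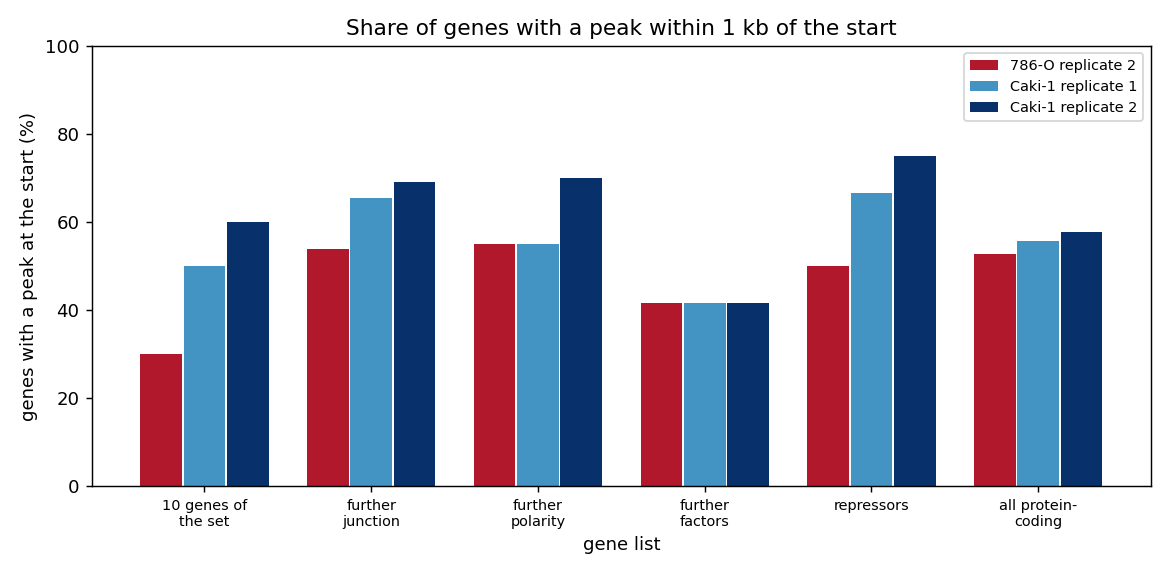
Share of genes with a peak within 1 kb of the start (y axis, percent) in each library, for the 10 genes, the 4 further lists and all protein-coding genes. The 10 genes lie under the share of all genes in 786-O, and junction genes and repressors lie above it in both Caki-1 libraries.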

How the data were processed

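H4K12la CUT&Tag of untreated 786-O (1 library) and Caki-1 (2 libraries) was analysed from the peak lists the authors deposited, 1 per library, so peaks were not called on pooled reads. Per the submitters' processing notes, Bowtie2, deepTools and fastp 0.19.6 were used with hg38 or GRCh38, in roles that are not stated. No source used here gives the read depth, a control or the peak caller with its threshold. The lists have no header. The deposited column 6 was read from its values as a summit signal in 786-O and Caki-1 replicate 1 and as a score in Caki-1 replicate 2, and was ranked within each list with ties at their mean.

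Gene spans and promoters came from RefSeq tables on GRCh38.p14, and the start of 79.2% of protein-coding genes was in the promoter table. For the others either end of the gene model was used, for the background as for the members. Overlap meant at least 1 bp. Intervals are exact (Clopper-Pearson) and cover counting error only. The counting was tested on simulated peaks. Python 3.11.15, pandas 2.3.3 and scipy 1.17.1 were used.

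The members and the further lists were chosen with earlier results of these data known. Of the further lists, genes were named that had a start peak in 1 line with none within 5 kb in the other, and the 3 with the highest lowest rank over the libraries; some genes that the counts include are not reported here by name. The alternatives changed the extension, the start window, the peaks used, the overlap and the Caki-1 libraries.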

Additional observations from a re-analysis of the deposited data

How the results depend on the processing

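The start peaks of OCLN and LLGL2 in Caki-1 without 786-O were found under every alternative tried: windows of 500 bp and 3 kb, the higher-ranked 50% of each list, equal list lengths and either Caki-1 library left out. The 3 kb window and the removal of a Caki-1 library could not have removed these calls. No alternative could have added a 786-O peak within 5 kb. In the higher-ranked 50% the OCLN start peak of Caki-1 replicate 1 was kept narrowly, at a rank of 50.1 against a cut of 50. Of 111 recomputed values for the set, 84 stayed within the limits used (1.5 times for counts, the interval for shares, the spread of the replicates for ranks). Of 80 ranks of the strongest peak of single genes, 42 moved past the limits, 24 of them when ranked by width. OCLN then ranked 37.5 for 786-O, and 97.6 and 89.5 for Caki-1 replicates 1 and 2. With no extension the peaks numbered 28 in 786-O against 25 in Caki-1 replicate 1, the median strongest ranks were 67.7, 74.3 and 77.7, and 10 regions were covered in all libraries. Then 2 genes, EPCAM and ESRP2, had peaks in Caki-1 only and 1, ESRP1, in 786-O only. With 50 kb, Caki-1 replicate 1 had 71 peaks, the median ranks of the Caki-1 libraries were 95.3 and 95.4, and 19 regions were covered in Caki-1 without 786-O.

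With the higher-ranked 50% of each list the peaks numbered 26, 29 and 35, and 2, 3 and 5 genes had a start peak. OCLN then had peaks in its extended span in Caki-1 only (1 gene) and OVOL1 in 786-O only (1 gene). The 786-O peaks were shared at 69.2% and 80.8% with the Caki-1 replicates, 5 regions were found in 786-O alone and 6 in Caki-1 without 786-O. Ranked by width, the median strongest ranks were 85.3 for 786-O, and 87.8 and 89.2 for Caki-1 replicates 1 and 2. Leaving out 1 Caki-1 library gave 20 to 28 regions in Caki-1 without 786-O, 16 to 21 in 786-O alone and 24 to 29 in all libraries, and 0 to 1 genes with peaks in 786-O only, which was OVOL1 without replicate 2. The use of either end for every gene, added after seeing the data, left the start counts at 3, 5 and 6. It could change only OCLN, TJP1 and CRB3, since the other 7 genes already used either end. TJP1 was then counted through other peaks, 770, 822 and 686 bp below its lower end. No paired analysis was possible because the lines share a single replicate number. Unknown depth limits every absence.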

Other observations

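OCLN and MARVELD2, which encode related tight junction proteins, are neighbours on chromosome 5, 48.2 kb apart, and both had a start peak in Caki-1 and none within 5 kb in 786-O. Of 19 other protein-coding genes within 1 Mb of OCLN, 8 had a start peak in 786-O, while Caki-1 had 12 and 11, and 3 of them had the Caki-1 pattern: CCDC125, MARVELD2 and GTF2H2C. Around LLGL2, 39 of 71 genes had a start peak in 786-O, while Caki-1 had 48 and 49, with 7 of the Caki-1 pattern and 1 of the reverse. Around ESRP1, the same 14 of 16 genes had a start peak in all 3 libraries, and around GRHL2 the same 7 of 11. Over all protein-coding genes 52.8%, 55.6% and 57.8% had a start peak in 786-O and Caki-1 replicates 1 and 2, and 45% in all 3. The Caki-1 pattern held for 5.3% of all genes and the reverse for 2.53%. The counts around the members were made after the values of the members were seen.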
